A study of Homo sapiens with 5 samples.

Results

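Interferon-stimulated genes are the transcripts a cell makes more of when it senses interferon, and a group of 33 of them was followed in HCT116, a human colorectal carcinoma cell line, in which siRNAs had been used against SP1, SP3 or the pair. The members were taken from a list of gene symbols, and all 33 were among the 20030 symbols in each deposited table. Control siRNA (NC) cells gave 2 libraries, named here control 1 and control 2, and siSP1, siSP3 and siSP1SP3 cells gave 1 library each, called the SP1 siRNA, SP3 siRNA and double knockdown libraries. No interferon treatment is named in the labels, so the levels are those of cells in culture with siRNA alone. Both factors belong to the zinc finger Sp family and recognise GC-rich promoter sites. The values are FPKM, a read count scaled by transcript length and library depth. Differences are given on the log2(FPKM + 1) scale, which shrinks them where values are low.

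Type I and type III interferons bind receptors at the cell surface and activate the kinases JAK1 and TYK2. These phosphorylate STAT proteins, among them STAT2, which act with IRF9 in the complex ISGF3, and ISGF3 binds a promoter element called the ISRE. The induced genes include RNA sensors, enzymes that degrade or tag viral RNA and protein, membrane proteins that block viral entry or release, and the factors of the pathway itself. Many epithelial cells hold low levels of these transcripts without added interferon.

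The libraries had 14678068 to 15970519 counted reads, as recovered from the steps between low FPKM values, and 10654 to 11232 genes reached 1 FPKM. The targeted transcripts were lower where the labels say so, and SP1 was also lower with the SP3 siRNA alone (74.5% of control, -0.41 ± 0.07 SE). SP1 stood at 36.6 and 37.2 FPKM in the controls, 15.8 with the SP1 siRNA, 27.5 with the SP3 siRNA and 16.1 with both, and SP3 at 13.3 and 13, 14.3, 5.42 and 6.67 FPKM. Of 10 epithelial markers 8 reached 1 FPKM, with EPCAM at 93.7 to 119 FPKM and KRT8 at 1737 to 2361 FPKM, while the intestinal factor CDX1 was listed at 0. Several of the 12 leukocyte markers had higher levels in both control libraries than in any knockdown library. The lysozyme gene LYZ was at 11.1 and 12.2 FPKM in the controls and at 0.258, 0.124 and 0.0449 FPKM with the SP1 siRNA, the SP3 siRNA and both. The pan-leukocyte marker PTPRC was at 0.93 and 0.717, then 0.0198, 0.00951 and 0 FPKM. The adaptor TYROBP and the T cell gene CD3E, above 0 in both controls, were listed at 0 in all 3 knockdown libraries. Summed over the 12 leukocyte markers, the controls held 92.8 and 90.9 FPKM and the knockdown libraries 60.5 to 95.9 FPKM. The exceptions to that direction were CD68 (61.9 and 58.7 FPKM in the controls, then 56.2, 94.1 and 75.3), ITGAM (0.632 and 0.572, then 1.37, 0.233 and 0.478) and CD79A (0.304 and 0.65, then 0.311, 0.149 and 0 FPKM). Most of the sum was CD68, which was set apart after its values were seen, and the other 11 markers summed to 30.8 and 32.2 FPKM in the controls and to 4.25, 1.82 and 2.47 FPKM with the SP1 siRNA, the SP3 siRNA and both. Leukocytes express many interferon-stimulated genes, and the part of such transcripts in the lower member levels described here was not tested. In bulk RNA, fewer cells of a type and less RNA per cell cannot be told apart.

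RefSeq promoter windows (GRCh38.p14, 250 bases before to 50 after the transcript start) were found for 26 of the 33 members, DDX58 under its current symbol, with 32 windows in all. An ISRE core, searched on both strands as GAAA, any 2 bases and GAAA again, was present in 21 of these 32 windows (65.6%), against 3.57% of all 35116 windows in the table. The GC box of SP1 and SP3, searched as GGGCGG on both strands, was present in 18 of 32 (56.2%), against 45.0% of all windows. Overlapping matches were counted separately. By gene, 18 members had an ISRE match, 16 a GC box match, 9 both and 1, OAS1, neither. A match describes letters in the window and not a bound site. The search was exact, so a stretch with 1 letter changed was not counted. The windows of OAS1, DDX58 and IFI35, without an ISRE match, hold GGAA, 2 bases and GAAA.

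The 250 bases before the start of 4 members are shown because ISG15 and BST2 hold the same motifs but stood on opposite sides of control with the SP3 siRNA, and OAS3 and IRF1, lower in all knockdown libraries, hold different ones. They run 5′ to 3′ in the direction of the gene, with ISRE and GC box matches in capitals. ISG15 (chr1:1013247-1013496, plus strand) had 2 overlapping ISRE matches and no GC box. BST2 (chr19:17405631-17405880, minus strand) also had 2 overlapping ISRE matches and no GC box. OAS3 (chr12:112938224-112938473, plus strand) had 2 ISRE matches, and its 1 GC box lies directly before the second of them. IRF1 (chr5:132490774-132491023, minus strand) had 5 GC boxes, 1 of them on the opposite strand, and no ISRE.
ISG15: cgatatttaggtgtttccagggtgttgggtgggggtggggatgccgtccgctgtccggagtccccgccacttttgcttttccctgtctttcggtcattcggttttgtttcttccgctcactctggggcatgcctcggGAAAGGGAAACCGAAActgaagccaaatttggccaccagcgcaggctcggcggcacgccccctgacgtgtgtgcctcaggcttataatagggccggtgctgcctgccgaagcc
BST2: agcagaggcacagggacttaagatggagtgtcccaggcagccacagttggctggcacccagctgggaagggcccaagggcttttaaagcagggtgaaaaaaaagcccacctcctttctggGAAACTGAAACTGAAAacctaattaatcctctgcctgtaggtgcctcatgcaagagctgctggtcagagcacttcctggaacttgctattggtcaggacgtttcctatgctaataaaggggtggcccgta
OAS3: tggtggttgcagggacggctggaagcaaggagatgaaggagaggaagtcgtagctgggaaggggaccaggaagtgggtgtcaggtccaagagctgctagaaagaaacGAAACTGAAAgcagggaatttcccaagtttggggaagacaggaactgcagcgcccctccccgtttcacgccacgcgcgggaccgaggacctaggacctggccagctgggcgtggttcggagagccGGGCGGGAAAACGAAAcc
IRF1: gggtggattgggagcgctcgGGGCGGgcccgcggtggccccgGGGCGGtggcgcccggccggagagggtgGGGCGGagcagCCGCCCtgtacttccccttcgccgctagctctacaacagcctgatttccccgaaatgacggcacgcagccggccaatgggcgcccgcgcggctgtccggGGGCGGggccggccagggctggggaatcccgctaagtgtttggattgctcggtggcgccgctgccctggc

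**Figure D1:**
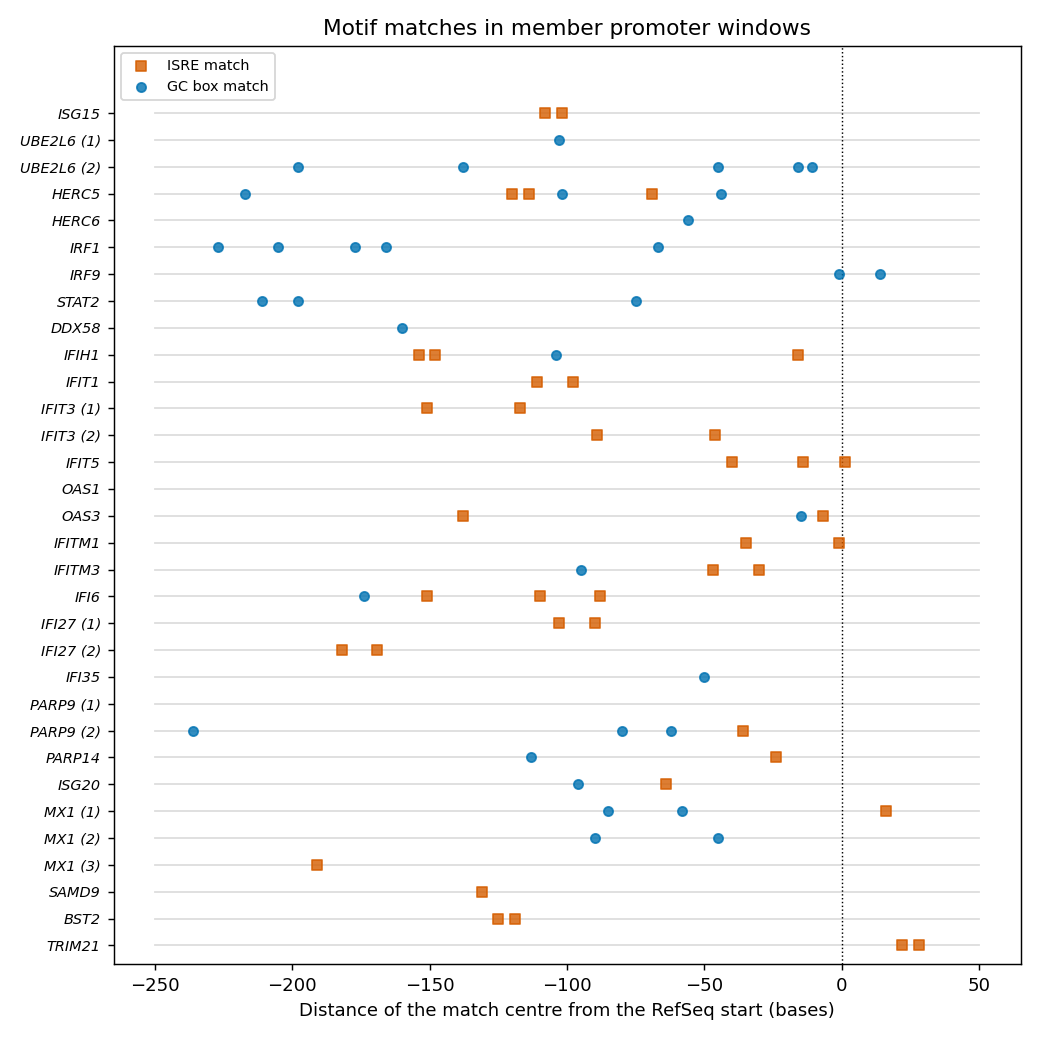
Positions of ISRE (squares) and GC box (circles) matches in the 32 promoter windows of 26 members, as the distance of the match centre from the RefSeq start in bases, with windows of 1 gene numbered. ISRE matches were found in 21 windows and GC boxes in 18, and the windows of IRF1 and STAT2 hold GC boxes with no ISRE.

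Some members share sequence with other genes, so reads may not be assigned to them alone. Counted as distinct 50-base words of GENCODE 29 transcripts, IFITM1 shared 32.0% of its words with other genes, IFITM2 34.1% and IFITM3 17.4%, mostly with each other. USP18 shared 23.4%, mostly with its copy USP41, and IRF9 43.6%, mostly with a transcript model that overlaps it on the same strand. On the opposite strand, 21.2% of the words of IRF1 and 17.8% of those of IFITM3 lay in other genes. The sources used here do not say whether the libraries kept strand, and the values of these genes are uncertain to that extent. Every other member shared at most 7.5% on either strand.

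The ubiquitin-like modifier ISG15 (379 and 404 FPKM) and the entry inhibitor IFITM3 (554 and 492 FPKM) stood far above the rest, followed by IFITM2 (85.4 and 71.8 FPKM). Another 5 members had control means above 10 FPKM: IRF1, IFI6, OAS3, IRF7 and STAT2. Most of the others lay between 1 and 10 FPKM. At the low end were 5 members that reached 1 FPKM in no library and were not tested: IFIT1, IFIT2, OAS1, OAS2 and MX1, with 0.0331 to 0.985 FPKM, or 2 to 54 reads. The other 28 members passed the filter of 1 FPKM in at least 1 library. DHX58 passed it only through the SP1 siRNA library, IFIT3 only through control 1 and SAMD9 only through the controls, so the direction of their differences is partly set by the filter.

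**Figure D2:**
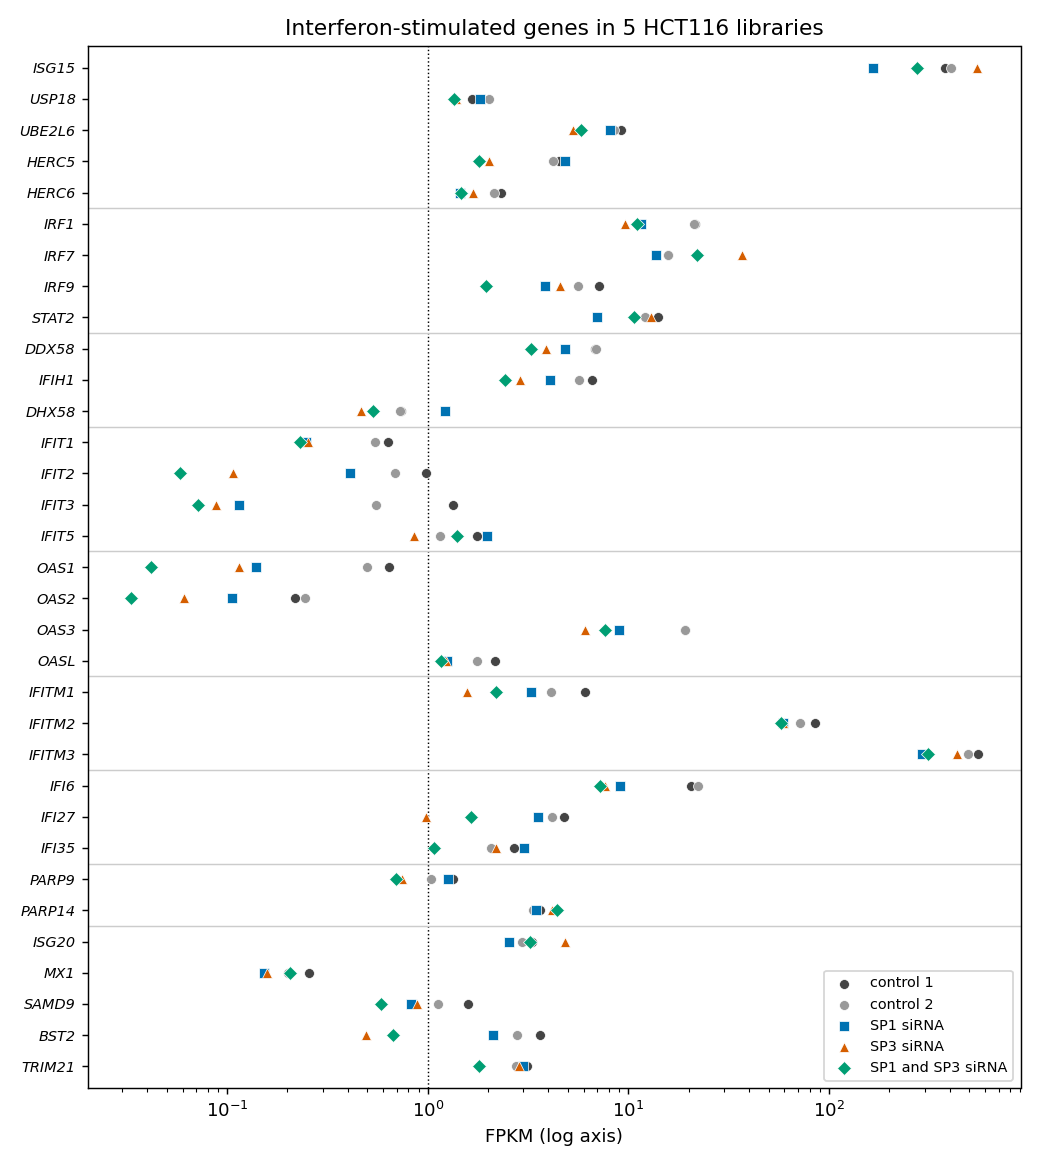
FPKM (log axis) of the 33 members in 5 libraries, 1 point per library, grouped by role with grey lines between groups and a dotted line at 1 FPKM. ISG15 and IFITM3 lie between 166 and 554 FPKM in all 5 libraries, and 5 members stay under 1 FPKM.

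The controls themselves were not alike for these genes. Of the 33 members, 26 were lower in control 2 than in control 1 and 7 were higher. Over the 28 tested members the difference, control 2 minus control 1, had a median of -0.14 and ranged from -0.58 to 0.18, while the median over all 11728 tested genes was -0.03. It was largest for IFIT3, at 1.33 and 0.554 FPKM (59 and 25 reads), where control 2 held 41.8% of control 1 with a 95% interval for counting error of 25.1 to 67.8%. IFITM1 (-0.46) and IFIT5 (-0.36) followed. OAS3, IRF1, IRF7, DDX58 and DHX58 differed by 0.02 or less in size between the controls.

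The ISG15 system attaches a small protein tag to other proteins: UBE2L6 is the conjugating enzyme, HERC5 the main ligase, HERC6 a related HECT protein, and USP18 removes the tag and also dampens the type I receptor. ISG15 was at 391 ± 17.5 FPKM in the controls (SD, n = 2), at 166 FPKM with the SP1 siRNA, at 548 FPKM with the SP3 siRNA and at 274 FPKM with both. The SP1 siRNA and double knockdown libraries lay below both controls, and the SP3 siRNA library above both. ISG15 thus fell with the SP1 siRNA to 42.3% of control (95% interval for counting error 40.1 to 44.6%, log2 difference -1.24 ± 0.06 SE, limma adjusted p = 1.36e-10) and with both to 70.0% (67.0 to 73.1%, -0.51 ± 0.06, adjusted p = 1.72e-06). With the SP3 siRNA it rose to 140% (135 to 145%, 0.49 ± 0.06, adjusted p = 3.15e-06). The controls differed by 0.09.

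HERC5 stood at 4.52 and 4.23 FPKM in the controls, 4.83 with the SP1 siRNA, 2.03 with the SP3 siRNA and 1.81 with both. Only the 2 libraries given the SP3 siRNA lay below the controls. The falls were -0.82 ± 0.12 with the SP3 siRNA (limma adjusted p = 1.84e-05) and -0.94 ± 0.12 with both (adjusted p = 4.8e-06), beside a control difference of -0.08. UBE2L6 was at 9.18 and 8.44 FPKM in the controls, 8.11 with the SP1 siRNA, 5.28 with the SP3 siRNA and 5.78 with both, so the 2 libraries given the SP3 siRNA were again the lowest. It fell by 0.64 ± 0.10 with the SP3 siRNA and by 0.53 ± 0.10 with both (limma adjusted p = 4.76e-05 and 0.000263), with -0.11 between the controls and -0.11 ± 0.10 with the SP1 siRNA (adjusted p = 0.358). HERC6, at 2.33 and 2.14 FPKM in the controls, was lower with the SP1 siRNA (1.45 FPKM, -0.40 ± 0.13) and with both (1.47 FPKM, -0.39 ± 0.13), and its difference with the SP3 siRNA (1.69 FPKM, -0.26 ± 0.13) missed the threshold (limma adjusted p = 0.0836), with -0.09 between the controls. USP18 lay between 1.36 and 2.02 FPKM in all 5 libraries and passed no test, with differences of -0.01, -0.25 and -0.27 beside 0.18 between the controls.

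Among the transcription factors, IRF7, the factor that amplifies type I interferon production, stood apart. It was at 15.7 and 15.8 FPKM in the controls, 13.7 with the SP1 siRNA, 36.8 with the SP3 siRNA and 22.0 with both. Both libraries given the SP3 siRNA lay above the controls. The rise was to 233% of control with the SP3 siRNA (215 to 253%, 1.17 ± 0.08, limma adjusted p = 5.71e-09) and to 140% with both (127 to 154%, 0.46 ± 0.08, adjusted p = 9.75e-05). With the SP1 siRNA IRF7 fell by 0.19 ± 0.08 (adjusted p = 0.0386), a call lost when limma-voom was run on recovered reads. The controls differed by 0.01.

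IRF1, a factor induced by interferons and by NF-kB, was at 21.6 and 21.3 FPKM in the controls and at 11.5, 9.63 and 11 FPKM with the SP1 siRNA, the SP3 siRNA and both. All 3 knockdown libraries lay well below the controls, which differed by -0.02. Its falls were -0.84 ± 0.08, -1.08 ± 0.08 and -0.91 ± 0.08 (limma adjusted p = 3.66e-07, 2.93e-08 and 1.66e-07). STAT2, the subunit that gives ISGF3 its activation domain, was at 14.0 and 12.1 FPKM in the controls, 7 with the SP1 siRNA, 13.0 with the SP3 siRNA and 10.7 with both. The SP3 siRNA library lay between the controls (0.00 ± 0.10, limma adjusted p = 0.989). STAT2 fell with the SP1 siRNA (-0.81 ± 0.10, limma adjusted p = 3.09e-06) and with both (-0.27 ± 0.10, adjusted p = 0.0245), where it was higher than with the SP1 siRNA alone (0.54 ± 0.11, adjusted p = 0.00104), while the controls differed by -0.19. IRF9, the DNA-binding subunit of ISGF3, was at 7.11 and 5.62 FPKM in the controls, 3.84 with the SP1 siRNA, 4.55 with the SP3 siRNA and 1.95 with both. It was lowest in the double knockdown, at 30.6% of control (22.2 to 41.6%, -1.31 ± 0.13, limma adjusted p = 3.33e-07). The single knockdowns gave -0.60 ± 0.13 and -0.40 ± 0.13, and the controls -0.29. Without control 1 the fall of IRF9 with the SP3 siRNA was -0.25 and that of STAT2 with both -0.17.

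The cytosolic RNA sensors DDX58 (RIG-I) and IFIH1 (MDA5) bind viral double-stranded RNA and signal towards interferon production. DDX58 was at 6.81 and 6.92 FPKM in the controls and at 4.86, 3.88 and 3.28 FPKM with the SP1 siRNA, the SP3 siRNA and both. Its falls were -0.42 ± 0.11, -0.69 ± 0.11 and -0.88 ± 0.11 (limma adjusted p = 0.00242, 4.31e-05 and 3.5e-06), with 0.02 between the controls. IFIH1 was at 6.62 and 5.68 FPKM, then 4.05, 2.87 and 2.44 FPKM, with falls of -0.50 ± 0.12, -0.88 ± 0.12 and -1.05 ± 0.12 (limma adjusted p = 0.00169, 1.1e-05 and 1.66e-06) and -0.19 between the controls. For both sensors the double knockdown library was the lowest and the groups did not overlap. DHX58 (LGP2), a related helicase that modulates the other two, was at 0.738 and 0.728 FPKM in the controls, 1.22 with the SP1 siRNA, 0.467 with the SP3 siRNA and 0.534 with both, or 31, 31, 50, 20 and 21 reads. The higher value with the SP1 siRNA passed the test (0.35 ± 0.14, limma adjusted p = 0.0346) but not after median-ratio scaling or with limma-voom, and the controls differed by -0.01. DHX58 passed the filter of 1 FPKM only through the SP1 siRNA library, so this direction is partly set by the filter.

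The OAS enzymes make the second messenger that activates RNase L. OAS3 held most of the family's transcript, at 19.1 and 19.2 FPKM in the controls, 9.03 with the SP1 siRNA, 6.08 with the SP3 siRNA and 7.61 with both. All knockdown libraries lay under the controls, which differed by 0.00. The falls were to 47.1% (43.8 to 50.6%), 31.7% (29.1 to 34.5%) and 39.7% (36.7 to 42.9%) of control, or -1.01 ± 0.09, -1.51 ± 0.09 and -1.23 ± 0.09 (limma adjusted p = 9.59e-08, 1.56e-09 and 1.25e-08). OASL, an OAS-like protein without that enzyme activity, was at 2.17 and 1.77 FPKM in the controls and at 1.25, 1.23 and 1.16 FPKM in the knockdowns, with falls of -0.40, -0.41 and -0.46 (each ± 0.14) beside -0.19 between the controls. The falls with either single siRNA were lost with limma-voom. OAS1 had 33 and 26 reads in the controls and 7, 6 and 2 reads with the SP1 siRNA, the SP3 siRNA and both. OAS2 had 21 and 24 reads, then 10, 6 and 3. Both are untested, and in the double knockdown OAS1 stood at 7.29% of control (0.863 to 27.5%) and OAS2 at 14.3% (2.85 to 44.7%).

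IFIT proteins bind foreign RNA ends and block translation. IFIT3 had 59 and 25 reads in the controls and 5, 4 and 3 reads in the SP1 siRNA, SP3 siRNA and double knockdown libraries. The log2 differences were -0.77, -0.80 and -0.83 (each ± 0.19, limma adjusted p = 0.00275, 0.00215 and 0.00172), next to -0.58 between the controls, and -0.48, -0.51 and -0.54 without control 1. IFIT3 passed the filter of 1 FPKM only through control 1, so the direction of these differences is partly set by the filter. IFIT2 had 54 and 38 reads, then 22, 6 and 3, which is 49.2% (29.4 to 79.0%), 12.9% (4.61 to 29.2%) and 7.02% (1.42 to 21.2%) of control. IFIT1 had 47 and 41 reads, then 18, 19 and 16, near 40% of control in each knockdown (39.1 to 42.7%). IFIT5 did not share this pattern: it was at 1.77 and 1.15 FPKM in the controls, 1.97 with the SP1 siRNA, 0.854 with the SP3 siRNA and 1.4 with both. Its fall with the SP3 siRNA (-0.40 ± 0.15, limma adjusted p = 0.0341) was little more than the control difference of -0.36, was -0.22 without control 1 and was lost after median-ratio scaling. The counts of IFIT1, IFIT2, IFIT3, OAS1 and OAS2 were lower in every knockdown library than in either control. The same held for members with more reads, such as OAS3, IFI6 and DDX58, so it is not particular to genes with few reads. LYZ and PTPRC given above were also lower throughout, but CD68, ITGAM and CD79A were not. The part of leukocyte transcripts in the member counts was not tested.

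**Figure D3:**
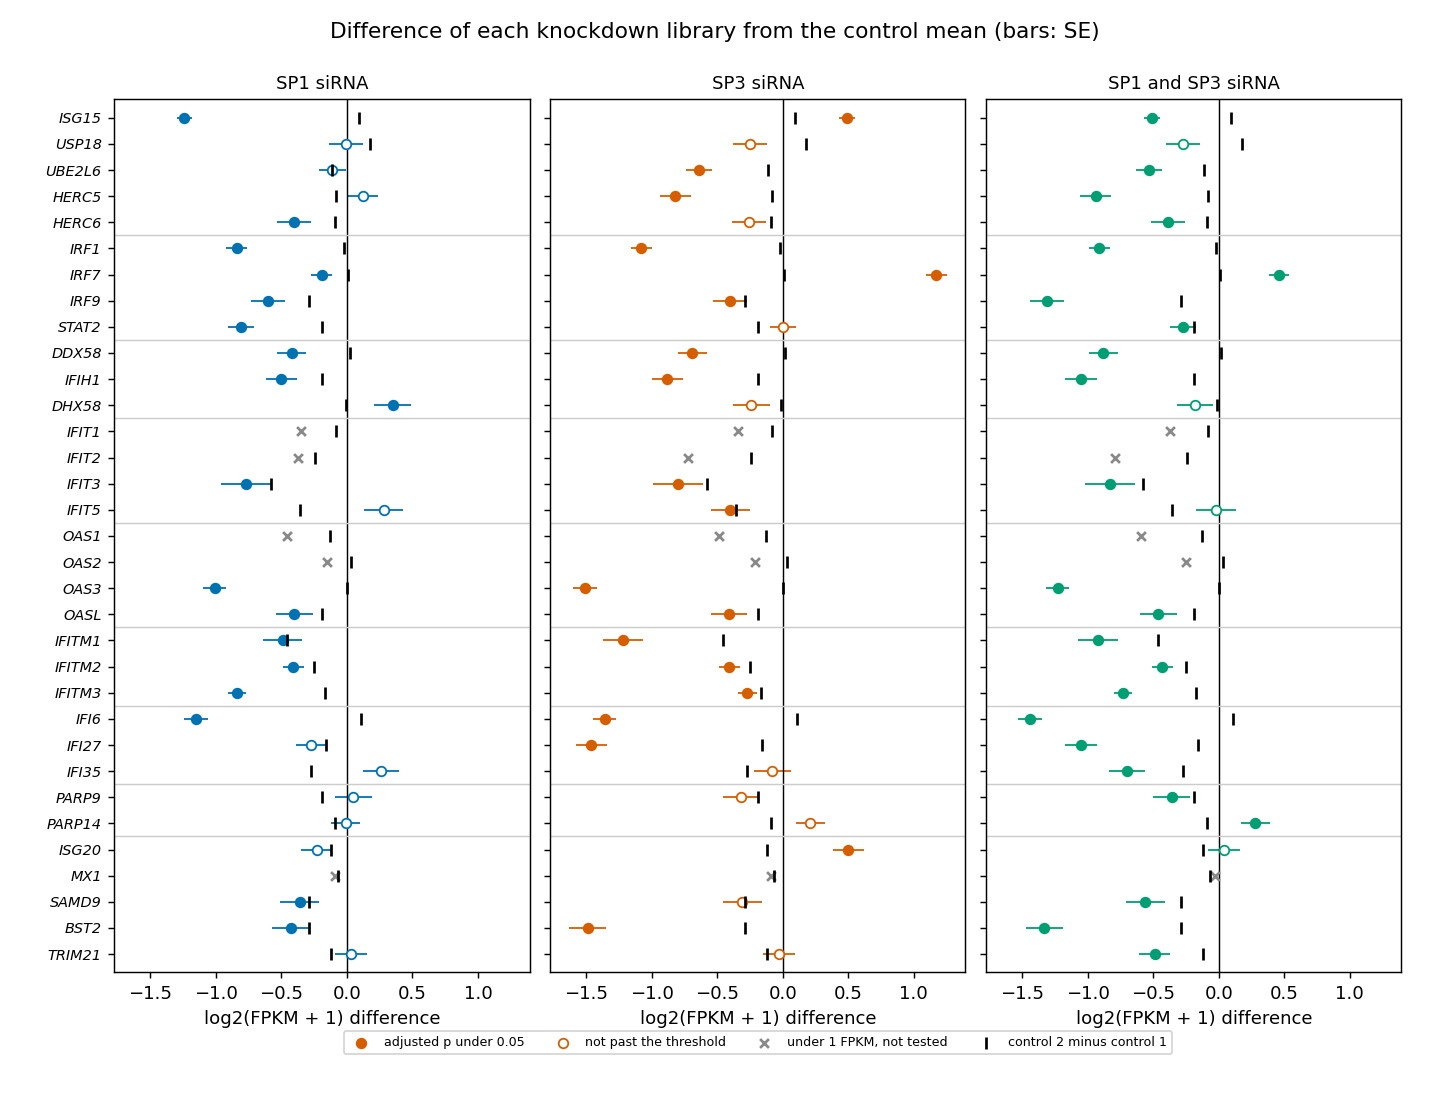
Difference of each knockdown library from the control mean on the log2(FPKM + 1) scale for the 33 members (bars, SE from limma; filled, adjusted p under 0.05; open, not past it; crosses, not tested; black ticks, control 2 minus control 1). Most points lie left of 0, and ISG15 at -1.24, 0.49 and -0.51 and IRF7 at -0.19, 1.17 and 0.46 change side between panels. The tick of IFIT3 (-0.58) lies near its changes (-0.77 to -0.83), and that of IFITM1 (-0.46) only near its change with the SP1 siRNA (-0.49).

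The IFITM proteins sit in membranes and hinder viral fusion. IFITM3 was at 554 and 492 FPKM in the controls, 292 with the SP1 siRNA, 433 with the SP3 siRNA and 313 with both. All knockdown libraries lay below the controls, those given the SP1 siRNA by most. Its falls were -0.84 ± 0.07, -0.27 ± 0.07 and -0.73 ± 0.07 (limma adjusted p = 3.29e-08, 0.00221 and 1.44e-07), with -0.17 between the controls, and the second was -0.18 without control 1. IFITM2 was at 58.8, 58.8 and 57.7 FPKM in the 3 knockdowns, below 85.4 and 71.8 FPKM in the controls, with falls of -0.41, -0.41 and -0.43 (each ± 0.08, limma adjusted p = 0.000536, 0.000594 and 0.000323) beside -0.25 between the controls. IFITM1 was lowest with the SP3 siRNA, at 6.05 and 4.12 FPKM in the controls, then 3.27, 1.57 and 2.19 FPKM. Its falls were -0.49 ± 0.15, -1.22 ± 0.15 and -0.92 ± 0.15 (limma adjusted p = 0.011, 6.25e-06 and 0.000102) against a control difference of -0.46, and the first was -0.26 without control 1 and lost with limma-voom.

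Of the IFI genes, IFI6, a mitochondrial and endoplasmic reticulum protein, was at 20.5 and 22.2 FPKM in the controls and at 9.05, 7.68 and 7.23 FPKM with the SP1 siRNA, the SP3 siRNA and both. The 3 knockdown libraries lay close together, at 42.4, 36 and 33.9% of control by reads. Its falls were -1.15, -1.36 and -1.44 (each ± 0.09, limma adjusted p = 2.87e-08, 5.51e-09 and 2.82e-09), with 0.11 between the controls. IFI27 was at 4.77 and 4.18 FPKM in the controls, 3.54 with the SP1 siRNA, 0.983 with the SP3 siRNA and 1.65 with both. It fell where the SP3 siRNA was given (-1.46 ± 0.12 and -1.05 ± 0.12, limma adjusted p = 8.75e-08 and 2.87e-06), and the value with the SP1 siRNA was -0.27 ± 0.12 (adjusted p = 0.0673) beside -0.16 between the controls. IFI35 was at 2.70 and 2.06 FPKM, then 3.02, 2.18 and 1.07 FPKM, and fell in the double knockdown (-0.70 ± 0.14, limma adjusted p = 0.000388), with -0.27 between the controls.

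BST2 (tetherin) holds budding virus particles at the cell surface. It was at 3.63 and 2.78 FPKM in the controls, 2.11 with the SP1 siRNA, 0.492 with the SP3 siRNA and 0.669 with both, or 58, 45, 33, 8 and 10 reads. The libraries given the SP3 siRNA were far below the rest. Their levels were 15.4% (6.46 to 31.4%) and 20.9% (9.73 to 40.0%) of control, with falls of -1.49 ± 0.14 and -1.33 ± 0.14 (limma adjusted p = 3.53e-07 and 1.13e-06), and -0.29 between the controls. With the SP1 siRNA BST2 was lower by -0.43 ± 0.14 (limma adjusted p = 0.0159), which was -0.28 without control 1 and lost with limma-voom. The exonuclease ISG20 rose with the SP3 siRNA, from 3.31 and 2.96 to 4.86 FPKM (0.50 ± 0.12, limma adjusted p = 0.00163, control difference -0.12), and was at 2.53 and 3.24 FPKM with the SP1 siRNA and both. SAMD9, a restriction factor of poxviruses, was at 1.59 and 1.12 FPKM in the controls and at 0.827, 0.886 and 0.586 FPKM, with differences of -0.36, -0.31 and -0.56 (each ± 0.15), of which the second missed the threshold, -0.29 between the controls and -0.21 with the SP1 siRNA without control 1. It passed the filter of 1 FPKM only through the controls, so the direction of its differences is partly set by the filter. TRIM21, the cytosolic antibody receptor, was at 3.11 and 2.77 FPKM, then 3, 2.86 and 1.80 FPKM, and fell with both siRNAs (-0.49 ± 0.12, limma adjusted p = 0.00251, control difference -0.12). MX1, a GTPase that traps viral capsids, had 24 and 19 reads in the controls and 14, 15 and 18 in the knockdowns, whose intervals of 33.8 to 125%, 35.6 to 127% and 48.9 to 159% of control include 100%. The ADP-ribosyltransferases had small differences on the log2(FPKM + 1) scale. PARP14 was at 3.34 to 4.43 FPKM and rose in the double knockdown (0.28 ± 0.11, limma adjusted p = 0.0426), and PARP9 was at 0.696 to 1.33 FPKM and fell there (-0.36 ± 0.14, adjusted p = 0.0364), with -0.09 and -0.19 between the controls. By reads PARP9 was at 63.3% of control with the SP3 siRNA (49.8 to 79.8%) and at 58.9% with both (45.7 to 75.4%). With limma-voom PARP9 and PARP14 also passed the threshold with the SP3 siRNA.

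**Figure D4:**
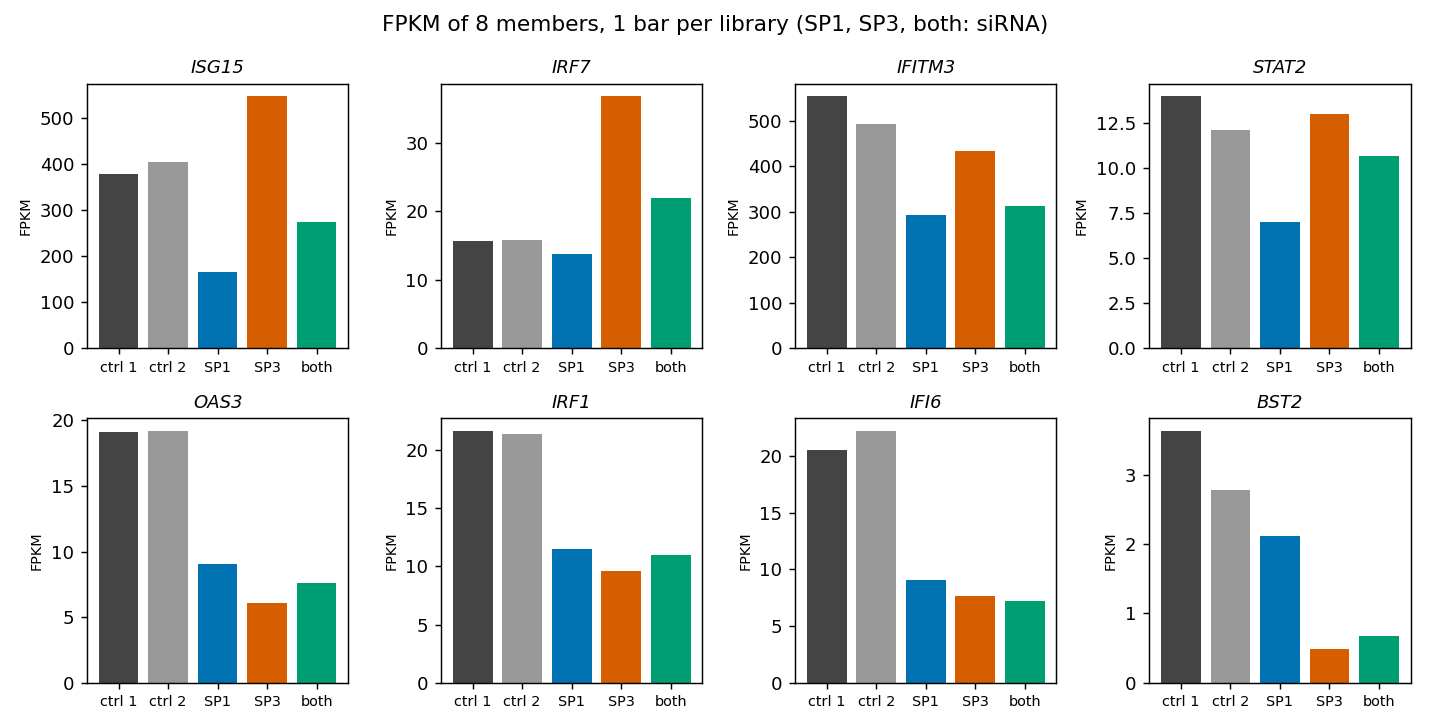
FPKM of 8 members, 1 bar per library, each panel with its own axis from 0. ISG15 and IRF7 are highest with the SP3 siRNA (548 and 36.8 FPKM), STAT2 is lowest with the SP1 siRNA (7 FPKM), and BST2 is lowest with the SP3 siRNA (0.492 FPKM).

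Counted over the tested members, limma called 17 of 28 lower and 1 higher with the SP1 siRNA, with a median of -0.40. Over all tested genes 28.8% were lower and 36.5% higher, with a median of 0.06. With the SP3 siRNA 16 members were lower and 3 higher (median -0.40), against 32.1% and 29.6% of all genes (median -0.02). Without control 1 both medians were -0.27. With both, 22 were lower and 2 higher (median -0.55), against 31.1% and 31.9% (median 0.01). The lower calls include IFIT3 in all 3 comparisons and SAMD9 with the SP1 siRNA and with both. The 1 higher call with the SP1 siRNA is DHX58. For these 3 members the direction is partly set by the filter. By the untested rule of at least 2-fold from each control, applied to the 10 members with a mean of at least 5 FPKM, IFI6, ISG15 and OAS3 were lower with the SP1 siRNA, where 5.89% of all genes were lower and 4.67% higher. IFI6, IRF1 and OAS3 were lower and IRF7 higher with the SP3 siRNA, beside 5.18% and 4.14% of all genes, and DDX58, IFI6 and OAS3 were lower with both, beside 5.30% and 4.38%.

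The 3 comparisons share their controls, the calls rest on the spread of these 2 libraries, and no knockdown library has a replicate. In an additive model, where the departure of the double knockdown from the sum of the single effects counts as spread, 3 of 18 calls were kept for the SP1 siRNA (ISG15, IFITM3 and IRF9), 8 of 19 for the SP3 siRNA (ISG15, IFI27, IRF7, DDX58, IFIH1, UBE2L6, HERC5 and BST2) and 9 of 24 for both (ISG15, IFI6, IFI27, IFITM3, IRF9, DDX58, IFIH1, HERC5 and BST2), and the limma adjusted p of the others was 0.0787 to 0.675, 0.0641 to 0.547 and 0.0584 to 0.271.

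The single knockdowns were also set against each other, which needs no control level. With the SP3 siRNA 5 of 28 members were higher than with the SP1 siRNA and 10 lower (median -0.22), against 26.5% and 36.2% of all genes (median -0.09). Higher were ISG15 (1.72 ± 0.07, limma adjusted p = 2.55e-11), IRF7 (1.36 ± 0.09, adjusted p = 6.24e-09), STAT2 (0.81 ± 0.11), ISG20 (0.73 ± 0.14) and IFITM3 (0.57 ± 0.08). Lower by most were IFI27 (-1.19 ± 0.14), BST2 (-1.06 ± 0.16), HERC5 (-0.94 ± 0.13), IFITM1 (-0.73 ± 0.18) and IFIT5 (-0.68 ± 0.18). The others were DHX58, UBE2L6, OAS3, IFIH1 and IRF1, at -0.59 to -0.24. DHX58 passed the filter only through the SP1 siRNA library, so its direction here is partly set by the filter. The test thus called 15 of 28 members between these 2 single libraries, where 62.7% of all genes were called. In the additive model 3 of these 15 calls were kept (ISG15, IRF7 and HERC5).

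Adding the SP3 siRNA to the SP1 siRNA left 3 members higher and 12 lower (median -0.28), beside 21.0% and 26.4% of all genes (median -0.05). ISG15 (0.72 ± 0.07), IRF7 (0.65 ± 0.09) and STAT2 (0.54 ± 0.11) were the higher ones, and HERC5 (-1.05 ± 0.13), IFI35 (-0.96 ± 0.16), BST2 (-0.90 ± 0.16), IFI27 (-0.78 ± 0.14) and IRF9 (-0.72 ± 0.15) fell by most. The 12 lower ones include DHX58 (-0.53 ± 0.16), which passed the filter only through the SP1 siRNA library, so its direction is partly set by the filter. In the additive model 8 of these 15 calls were kept. Adding the SP1 siRNA to the SP3 siRNA left 2 higher and 7 lower (median -0.06), beside 17.9% and 15.1% of all genes (median 0.03). ISG15 (-1 ± 0.07), IRF9 (-0.91 ± 0.15), IRF7 (-0.72 ± 0.09), IFI35 (-0.62 ± 0.16), ISG20 (-0.47 ± 0.14), IFITM3 (-0.46 ± 0.08) and TRIM21 (-0.46 ± 0.14) were lower, and IFI27 (0.42 ± 0.14) and OAS3 (0.28 ± 0.10) higher. In the additive model 3 of these 9 calls were kept (ISG15, IFITM3 and IRF9), and for OAS3 the sign turned to -0.46 (limma adjusted p = 0.31). In that model, adding an siRNA to the other is the same term as that siRNA against the controls. The calls it kept here are thus not separate from those it kept against the controls.

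Departure from additivity was tested as the interaction: from the difference of the double knockdown, the 2 single differences were subtracted. Limma called it positive in 10 of 28 members and negative in 3 (median over the 28 of 0.24), against 18.5% and 21.0% of all genes (median -0.03). OAS3 (1.29 ± 0.13, limma adjusted p = 3.22e-06), IFI6 (1.07 ± 0.14, adjusted p = 2.21e-05) and IRF1 (1.01 ± 0.13, adjusted p = 1.92e-05) had the largest positive values. Each siRNA alone lowered these 3 genes, and the fall with both was smaller than the sum of the single falls. The term is positive whenever all 3 knockdown libraries lie at similar levels below the controls. Over the 9 tested leukocyte markers its median was 1.45 (-0.30 to 3.22). Of these, CD14, LYZ, TYROBP, CSF1R, FCER1G, LAPTM5 and CD74 passed the filter of 1 FPKM only through the controls. The sign of that median is therefore partly set by the filter. The part of leukocyte transcripts in the values of the members was not tested. IFI35 (-0.88 ± 0.21), IRF7 (-0.52 ± 0.12) and TRIM21 (-0.49 ± 0.19) were negative. For ISG15 the interaction was 0.24 ± 0.09 (adjusted p = 0.0431), small beside its opposite single differences of -1.24 and 0.49, and it was lost after median-ratio scaling and with limma-voom. With no filter on low values, limma called 0 genes for the interaction and for the double knockdown against either single one, and the adjusted p of the 13 members was 0.112 to 0.388 for the interaction.

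**Figure D5:**
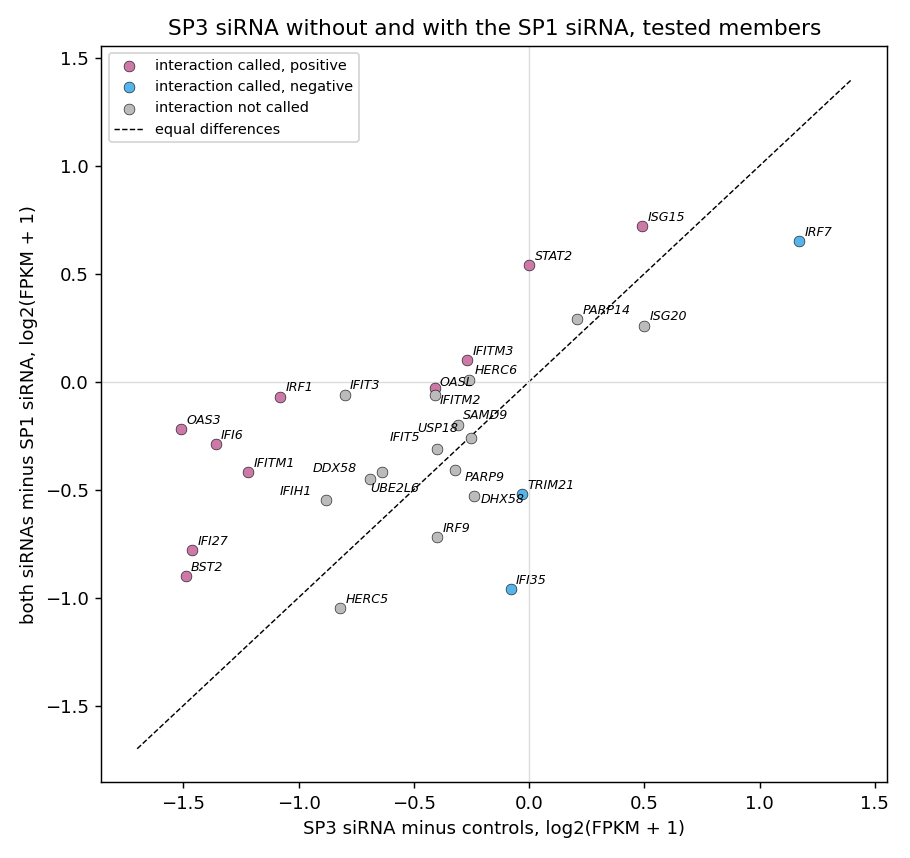
The difference made by the SP3 siRNA alone (horizontal, SP3 siRNA minus controls) and on top of the SP1 siRNA (vertical, both minus SP1 siRNA) for the 28 tested members, on the log2(FPKM + 1) scale, with a dashed line at equal differences and colours for the interaction call. ISG15 lies at 0.49 and 0.72 and HERC5 at -0.82 and -1.05, near the line, while OAS3, IRF1 and IFI6 lie well left of it.

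The rest of the pathway was followed through lists of ligands, receptors, signalling proteins, inhibitors and further induced genes. Of 21 interferon genes 15 were listed at 0 in all 5 libraries, among them IFNB1, and none reached 1 FPKM. The highest single value was that of IFNE, an epithelial type I interferon, at 0.397 FPKM with the SP1 siRNA. The 4 with the highest mean were IFNE (0.0425 to 0.397 FPKM), IFNA5 (0 to 0.179), IFNL2 (0 to 0.174) and IFNL3 (0 to 0.0957).

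Of 11 receptor, kinase and STAT genes, 5 fell and none rose with the SP1 siRNA, 8 fell and 2 rose with the SP3 siRNA, and 8 fell and 1 rose with both, with medians of -0.11, -0.49 and -0.52 (-0.03 between the controls). Over all tested genes 28.8% fell and 36.5% rose with the SP1 siRNA, 32.1% and 29.6% with the SP3 siRNA, and 31.1% and 31.9% with both. STAT3 stayed between 34.8 and 39.3 FPKM and passed no test. JAK1, a kinase of all interferon receptors, went from 41.9 and 44.2 FPKM to 34.1, 25.3 and 24.4 FPKM (-0.33, -0.74 and -0.79, each ± 0.07, all past the limma threshold). IFNGR2, a chain of the interferon gamma receptor, was at 25.0 and 26, then 24.6, 19.8 and 17.9 FPKM and fell with the SP3 siRNA (-0.35 ± 0.08) and both (-0.49 ± 0.08).

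Among genes that sense RNA and signal upstream of interferon, most calls were falls. Of 12 tested genes (15 listed), 8 fell and none rose with the SP1 siRNA, 9 fell and 1 rose with the SP3 siRNA, and 10 fell and none rose with both, with medians of -0.63, -0.72 and -0.71 and -0.02 between the controls. Of all genes, 28.8%, 32.1% and 31.1% fell and 36.5%, 29.6% and 31.9% rose. MYD88, lower in each knockdown, passed the filter of 1 FPKM only through the controls, so its direction is partly set by the filter. TRIM25, the ligase that activates RIG-I, went from 57.3 and 56.5 FPKM to 26.1, 25.4 and 22.8 FPKM (-1.09, -1.13 and -1.28, each ± 0.07). ADAR, which edits double-stranded RNA, went from 29.5 and 27.8 FPKM to 20.6, 21.8 and 20.6 FPKM (-0.46, -0.38 and -0.45, each ± 0.08). IRF3, the factor first activated by RNA sensing, was at 18.2 to 23.1 FPKM and passed no test against the controls, and the mitochondrial adaptor MAVS, at 21.0 and 20.8 FPKM in the controls, fell with the SP3 siRNA (16.0 FPKM, -0.36 ± 0.08) and with both (17.1 FPKM, -0.27 ± 0.08).

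Negative regulators had calls in both directions at shares near those of all genes (36.5%, 29.6% and 31.9% higher and 28.8%, 32.1% and 31.1% lower), with 4 rises and 4 falls of 10 with the SP1 siRNA, 5 and 3 with the SP3 siRNA and 3 and 4 with both (medians -0.16, 0.05 and -0.13, and 0.01 between the controls). PTPN11, the phosphatase SHP2, rose from 22.4 and 22.1 FPKM to 56, 61.5 and 67.1 FPKM (1.29, 1.43 and 1.55, each ± 0.07). SOCS3, an inhibitor of JAK kinases, was at 16.0 and 16.8 FPKM in the controls and at 12.2, 21.3 and 17.2 FPKM, falling with the SP1 siRNA (-0.40 ± 0.08) and rising with the SP3 siRNA (0.36 ± 0.08). The phosphatase PTPN6 fell in all 3 (-0.22, -0.26 and -0.50, each ± 0.09), from 17.3 and 15.6 to 13.9, 13.5 and 11.3 FPKM. PIAS3, an inhibitor of STAT3, went from 15.5 and 13.4 to 9.36, 12.3 and 7.44 FPKM and fell with the SP1 siRNA (-0.57 ± 0.10) and both (-0.87 ± 0.10).

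Another 43 interferon-stimulated genes outside the members were listed, of which 26 were tested. With the SP1 siRNA 12 fell and 3 rose, with the SP3 siRNA 12 fell and 5 rose, and with both 16 fell and 5 rose, with medians of -0.19, -0.27 and -0.36 and -0.07 between the controls, where 28.8%, 32.1% and 31.1% of all genes fell and 36.5%, 29.6% and 31.9% rose. Among these falls, GBP2 in each knockdown and PARP10 with both passed the filter of 1 FPKM only through control libraries. Their direction is thus partly set by the filter. LGALS3BP, a secreted glycoprotein, was at 131 and 138 FPKM in the controls and at 117, 122 and 101 FPKM (-0.20, -0.13 and -0.41, each ± 0.06, the second not past the threshold). IFI30, a lysosomal thiol reductase, was at 63.6 and 66.4 FPKM, then 71.7, 32.5 and 30.8 FPKM, and fell where the SP3 siRNA was given (-0.98 and -1.05, each ± 0.07). The aminopeptidase LAP3 rose in all 3, from 13.5 and 13.8 to 18.9, 17.5 and 28.1 FPKM (0.44, 0.34 and 0.99, each ± 0.08). HELZ2, a helicase coactivator, rose where the SP3 siRNA was given, from 12.2 and 12.0 to 17.7 and 18.0 FPKM (0.51 and 0.53, each ± 0.08). Between the controls, the genes named from these lists above 1 FPKM differed by -0.20 (IRF3) to 0.07 (JAK1, SOCS3 and LGALS3BP).

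Set beside the promoter matches, members with and without a GC box had similar medians. With the SP1 siRNA the median was -0.42 for the 15 tested members with a GC box, of which 9 were lower, and -0.40 for the 8 without, of which 5 were lower, beside 28.8% of all genes. With the SP3 siRNA the medians were -0.40 and -0.60, with 9 of 15 and 5 of 8 lower, beside 32.1% of all genes. With both they were -0.73 and -0.70, with 13 of 15 and 7 of 8 lower, beside 31.1%. Members with an ISRE match had medians of -0.40, -0.60 and -0.78 (16 tested) and those without -0.42, -0.40 and -0.70 (7 tested). The 7 without include DDX58 and IFI35, whose windows hold the searched letters with 1 changed, so the 2 groups are not cleanly parted by the element. ISG15 and BST2, whose windows printed above both hold overlapping ISRE matches and no GC box, stood at 140% and 15.4% of control with the SP3 siRNA. These groups were formed with the results known and were not tested.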

How the data were processed

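RNA from HCT116 cells with control, SP1, SP3 or both siRNAs was sequenced as 5 libraries. The deposited tables hold 1 FPKM value per gene symbol and library, made by the authors. The submitters' processing notes name HISAT2 2.0.5, HTSeq 0.9.1, Cufflinks 2.2.1 and Trimmomatic 0.36, with no role or order. The genome build and annotation are not given in the sources used. The labels do not tie the 2 controls to different cultures, and the p-values reflect how far apart these libraries lie, which may be technical. The members, lists and tests were chosen with earlier results of these data known.

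The 11728 genes that reached 1 FPKM in any library were tested as log2(FPKM + 1) with limma 3.58.1 in R 4.3.3 (trended empirical Bayes, 1 residual degree of freedom, Benjamini-Hochberg adjustment over all tested genes, threshold 0.05), after testing on simulated data. "Higher", "lower", "rose" and "fell" refer to this threshold. Every member was described, and of each pathway list the 4 genes with the highest mean FPKM were named, except 1 gene that is not reported here.

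Read counts (14678068 to 15970519 per library) were recovered from FPKM steps, which came out whole (within 0.02 reads) for 99.98% of genes. They gave exact 95% conditional intervals of a level relative to the pooled controls, which cover counting error only, and a limma-voom alternative chosen after seeing the data. Other alternatives were filters, pseudocounts, median-ratio scaling, an additive model and leaving out a control.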

Additional observations from a re-analysis of the deposited data

Results flagged for a closer look

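Whether the difference made by 1 siRNA depended on the other was tested with limma's interaction term on the log2(FPKM + 1) scale. The term was called (adjusted p under 0.05) for 13 of 28 tested members, beside 18.5% positive and 21.0% negative of all genes. It was positive for OAS3 (1.29, adjusted p = 3.22e-06), IFI6 (1.07, adjusted p = 2.21e-05), IRF1 (1.01, adjusted p = 1.92e-05), IFITM1 (0.80, adjusted p = 0.0141), IFI27 (0.68, adjusted p = 0.00966), BST2 (0.59, adjusted p = 0.043), STAT2 (0.54, adjusted p = 0.00884), IFITM2 (0.38, adjusted p = 0.0276), IFITM3 (0.37, adjusted p = 0.0083) and ISG15 (0.24, adjusted p = 0.0431). It was negative for IFI35 (-0.88, adjusted p = 0.00399), IRF7 (-0.52, adjusted p = 0.00251) and TRIM21 (-0.49, adjusted p = 0.0491). Each value rests on 1 library per knockdown. With no filter on low values all 13 calls were lost (adjusted p = 0.112 to 0.388). With limma-voom 5 of the 13 were lost (ISG15, IFI27, IFITM1, BST2 and TRIM21), and with median-ratio scaling 2 (ISG15 and TRIM21). Without control 1 the value for IFITM2 was 0.25.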

How the results depend on the processing

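Counts of called members depended most on the filter and on the model. With no filter on low values, the comparisons with the controls gave 1 higher and 4 lower for the SP1 siRNA, 1 higher and 4 lower for the SP3 siRNA, and 1 higher and 6 lower for both. That setting left 2 higher and 2 lower between the single knockdowns and 0 in either direction for the double knockdown against either single one and for the interaction. Over all genes it called 24.4%, 12.3% and 18.4% against the controls in place of 65.4%, 61.6% and 63.0%, 15.4% in place of 62.7% between the single knockdowns, and 0 in place of 47.5%, 33% and 39.5% in the rest. With a mean of at least 5 FPKM only 10 members were tested, which gave 0 higher and 9 lower (SP1 siRNA), 2 higher and 7 lower (SP3 siRNA), 1 higher and 9 lower (both), 3 higher and 3 lower (both against SP1 siRNA), 1 higher and 4 lower (both against SP3 siRNA), 4 higher and 3 lower (SP3 siRNA against SP1 siRNA), and 7 positive and 1 negative interactions. This setting called 71.7%, 69.8% and 70.0% of all genes against the controls. For both against the SP1 and SP3 siRNAs the shares were 56.8% and 44.8%, between these 69.5%, and for the interaction 49.9%. The additive model gave 0 higher and 3 lower (SP1 siRNA), 2 higher and 6 lower (SP3 siRNA), 0 higher and 9 lower (both), 2 higher and 6 lower (both against SP1 siRNA), 0 higher and 3 lower (both against SP3 siRNA), and 2 higher and 1 lower (SP3 siRNA against SP1 siRNA). It called 7.67%, 15.4% and 16.8% of all genes against the controls, 15.4% and 7.67% for both against the SP1 and SP3 siRNAs and 10.9% between these. It turned OAS3, both against SP3 siRNA, from 0.28 to -0.46 (limma adjusted p = 0.31). In this model that comparison is the same term as the SP1 siRNA against the controls (-1.01 for OAS3 in the main model). Likewise, both against SP1 siRNA is the same term as the SP3 siRNA against the controls, so these counts and shares repeat. The member higher with the SP1 siRNA, DHX58, was lost (0 higher) with a pseudocount of 0.1, median-ratio scaling and limma-voom. For both against SP3 siRNA, a pseudocount of 5 left 0 higher, and median-ratio scaling and limma-voom 1 higher. With limma-voom 6 interactions were positive and 2 negative, beside 40.1% of all genes called, and 66%, 63% and 62.8% of all genes were called against the controls. At 1.5-fold in place of 2-fold, 6, 5 and 5 members were lower, and the share of all genes at 1.5-fold was not counted. Leaving out either control gave the same counts by the 2-fold rule, and no test, since no residual degree of freedom was left. No paired analysis was possible because only the controls carry replicate numbers. Members with few reads are limited by depth.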
